A study of Homo sapiens with 6 samples.

Results

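Human chromosome 19 holds 241 protein-coding genes whose symbols are ZNF plus a number, out of 60564 genes in the count table. The rule that picks them uses annotation alone (gene type, chromosome and symbol) and no measured value. It was set with earlier results of these data known. Of these, 202 reached 1 CPM (counts scaled to a common library total, with TMM correction) in at least 3 libraries and could be described, and 39 stayed below that limit. No member reached the limit through the libraries of 1 group alone. Among the 39, 14 had no count in any library, where 3 counts would correspond to 0.0662 to 0.0987 CPM depending on the library.

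HepG2 is a long-established human hepatoma line, wild type here per the labels. In 3 libraries the cells had received formononetin, an isoflavone of legumes, for 72 h at a dose given as 625 with the unit written μm. The 3 control libraries are labelled only with the culture medium DMEM, and neither a solvent nor a culture time is given for them. Both groups are HepG2 cells grown in the same medium with fetal calf serum and antibiotics, and no label ties the libraries of a group to separate cultures. The p-values therefore reflect how far these libraries spread, and that spread may be technical only.

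Counts on named genes were 37465148 to 45682722 in formononetin libraries and 30848848 to 36243606 in control libraries. Members took 102140 to 121221 of them in formononetin libraries and 86637 to 103775 in control libraries. Summed, 6 hepatocyte markers stood at 10440 to 11060 CPM in formononetin libraries and 14016 to 14650 CPM in control libraries, and 5 of the 6, all but APOA1, were lower in every formononetin library. A sum of 6 markers of leukocytes, endothelium and fibroblasts was 35.6 to 37.9 CPM in formononetin libraries and 37.0 to 42.1 CPM in control libraries, but its members moved apart. The pericyte and fibroblast gene PDGFRB was at 3.82 to 4.46 CPM in formononetin libraries and 12.6 to 14.6 CPM in control libraries. CD68, of macrophages, was at 5.26 to 7.79 CPM in formononetin libraries and 2.39 to 3.88 CPM in control libraries. These groups did not overlap, nor did those of the endothelial gene CDH5, which was higher in formononetin libraries but at most 0.210 CPM. PECAM1 made up most of the sum, and PTPRC, the defining leukocyte marker, had no count in any library. The part of these differences in the members' changes was not tested.

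ZNF genes encode proteins with rows of C2H2 zinc fingers, small folds around a zinc ion that read DNA sequence. Most of those on chromosome 19 lie in tandem clusters that grew by gene duplication, in part during primate evolution. Many carry a KRAB domain, which binds the scaffold protein TRIM28. TRIM28 brings in the histone methyltransferase SETDB1 and heterochromatin proteins, and transposable elements are frequent targets. A search for KRAB motifs in the translated coding sequences matched 192 of the 241 members. Fingers numbered 0 to 36 per member by pattern search, with a median of 12.

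The promoter windows of 8 called members follow, picked in pairs after their values were seen because they moved alike or share motif counts. They therefore cannot show that neighbours move together. Both genes were called in 2 of 167 pairs of consecutive members. The 3 raised members with a window but no CCAATC are not printed. Each window runs from 250 bases before to 50 after the RefSeq gene start (GRCh38.p14) and is printed 5′ to 3′ on the strand of the gene. ZNF556 (chr19:2867085-2867384) and ZNF57 (chr19:2900678-2900977) are neighbours on the plus strand, and both rose in formononetin libraries. ZNF682 (chr19:20039456-20039755) and ZNF724 (chr19:23250345-23250644) lie on the minus strand in another cluster, and they rose too. Capitals mark CCAATC, the core of a CCAAT box, and in ZNF724 also the reverse complement of TTGCGTG, a site of the aryl hydrocarbon receptor.
ZNF556: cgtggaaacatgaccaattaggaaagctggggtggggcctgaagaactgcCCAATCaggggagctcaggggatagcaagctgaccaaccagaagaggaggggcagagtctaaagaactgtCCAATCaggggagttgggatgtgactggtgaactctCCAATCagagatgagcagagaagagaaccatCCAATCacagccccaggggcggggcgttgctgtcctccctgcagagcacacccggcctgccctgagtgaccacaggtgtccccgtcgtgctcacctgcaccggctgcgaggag
ZNF57: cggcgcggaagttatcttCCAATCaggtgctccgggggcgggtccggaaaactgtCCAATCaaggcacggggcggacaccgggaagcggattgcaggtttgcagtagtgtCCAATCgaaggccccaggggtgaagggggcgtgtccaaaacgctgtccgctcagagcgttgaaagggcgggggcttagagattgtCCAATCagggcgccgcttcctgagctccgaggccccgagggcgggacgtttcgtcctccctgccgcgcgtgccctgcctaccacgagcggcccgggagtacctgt
ZNF682: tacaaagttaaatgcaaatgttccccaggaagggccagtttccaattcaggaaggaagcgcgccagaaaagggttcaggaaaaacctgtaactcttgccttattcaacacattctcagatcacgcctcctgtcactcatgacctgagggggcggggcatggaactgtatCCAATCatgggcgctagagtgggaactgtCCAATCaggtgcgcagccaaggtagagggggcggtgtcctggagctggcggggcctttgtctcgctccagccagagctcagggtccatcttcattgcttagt
ZNF724: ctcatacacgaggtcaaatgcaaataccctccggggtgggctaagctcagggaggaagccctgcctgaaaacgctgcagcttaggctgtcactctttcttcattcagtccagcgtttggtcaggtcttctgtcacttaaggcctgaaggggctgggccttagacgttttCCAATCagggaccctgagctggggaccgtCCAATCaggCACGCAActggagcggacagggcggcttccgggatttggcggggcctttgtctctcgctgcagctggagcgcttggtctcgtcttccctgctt

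ZNF439 (chr19:11848476-11848775) and ZNF69 (chr19:11887532-11887831), plus-strand neighbours, fell. So did ZNF613 (chr19:51927222-51927521, plus strand) and ZNF614 (chr19:52028330-52028629, minus strand), which share a cluster. Capitals mark CCAATC in the first pair and, in the second, AAGATGGC or its reverse complement, a site of YY1.
ZNF439: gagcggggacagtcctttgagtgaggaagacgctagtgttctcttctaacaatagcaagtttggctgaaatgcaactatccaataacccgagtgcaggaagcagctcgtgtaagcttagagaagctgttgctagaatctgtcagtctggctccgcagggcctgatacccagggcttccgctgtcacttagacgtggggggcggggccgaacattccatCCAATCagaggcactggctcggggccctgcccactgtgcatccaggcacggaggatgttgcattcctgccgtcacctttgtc
ZNF69: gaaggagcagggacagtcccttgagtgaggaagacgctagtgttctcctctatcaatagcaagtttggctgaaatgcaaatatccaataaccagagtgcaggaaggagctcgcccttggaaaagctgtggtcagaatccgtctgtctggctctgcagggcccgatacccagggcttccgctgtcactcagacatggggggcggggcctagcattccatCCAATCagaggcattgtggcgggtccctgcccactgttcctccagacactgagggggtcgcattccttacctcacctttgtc
ZNF613: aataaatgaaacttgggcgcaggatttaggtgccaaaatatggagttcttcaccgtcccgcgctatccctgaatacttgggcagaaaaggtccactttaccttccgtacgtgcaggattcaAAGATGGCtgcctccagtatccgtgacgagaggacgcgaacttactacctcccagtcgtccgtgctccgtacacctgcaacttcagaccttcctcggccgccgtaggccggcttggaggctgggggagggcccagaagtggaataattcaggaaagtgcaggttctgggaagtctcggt
ZNF614: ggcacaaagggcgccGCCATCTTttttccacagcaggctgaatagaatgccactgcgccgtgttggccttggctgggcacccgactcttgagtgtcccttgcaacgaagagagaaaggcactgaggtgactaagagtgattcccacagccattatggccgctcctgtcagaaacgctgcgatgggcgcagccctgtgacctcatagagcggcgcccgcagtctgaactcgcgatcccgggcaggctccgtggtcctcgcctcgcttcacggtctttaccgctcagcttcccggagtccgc

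The windows of ZNF439 and ZNF69 were identical at 259 of 304 aligned positions (85.2%). Identity was 66.9% between ZNF682 and ZNF724 and 53.2% between ZNF556 and ZNF57, where the other pairs among the 8 lay between 44.0% and 51.4%.

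Few chromosome 19 ZNF genes differed between formononetin and control libraries, and those that did were split between directions. Of the 202, 10 rose and 12 fell (quasi-likelihood F test of edgeR with Benjamini-Hochberg adjustment over 22230 genes, threshold 0.05), 10.9% in all, whereas 20.7% of all genes tested were called. Of all 16712 genes at the same expression limit, 26.3% were called, 15.5% raised and 10.8% lowered. The median log2 fold change of the 202, formononetin over control, was -0.06 (quartiles -0.25 and 0.12), beside 0.01 for all genes at the limit. Of the 202, 118 (58.4%) were negative, beside 48.4% of all genes at the limit. Of protein-coding genes at the limit, 30.9% were called and 42.9% were negative, with a median of 0.05. In bulk libraries, fewer cells with a transcript and less of it per cell cannot be told apart. Another gene overlaps 110 of the 202 on either strand, among the called ones ZNF57, ZNF561, ZNF473, ZNF155 and ZNF468 beside those named below. The split depended on the scaling, and upper quartile factors gave 6 rises and 25 falls. That scaling also moved the median log2 fold change of all genes tested from -0.0111 to -0.0899. Calls among all genes tested moved too, from 2659 raised and 1937 lowered in the main fit. Over the alternatives that kept every library they were 1813 to 3142 raised and 1328 to 2737 lowered. Leaving out any 1 library left 4 to 6 raised and 10 to 15 lowered, the fewest raised without formononetin replicate 2. All genes tested then had 1703 to 2189 raised and 1272 to 1478 lowered.

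**Figure D1:**
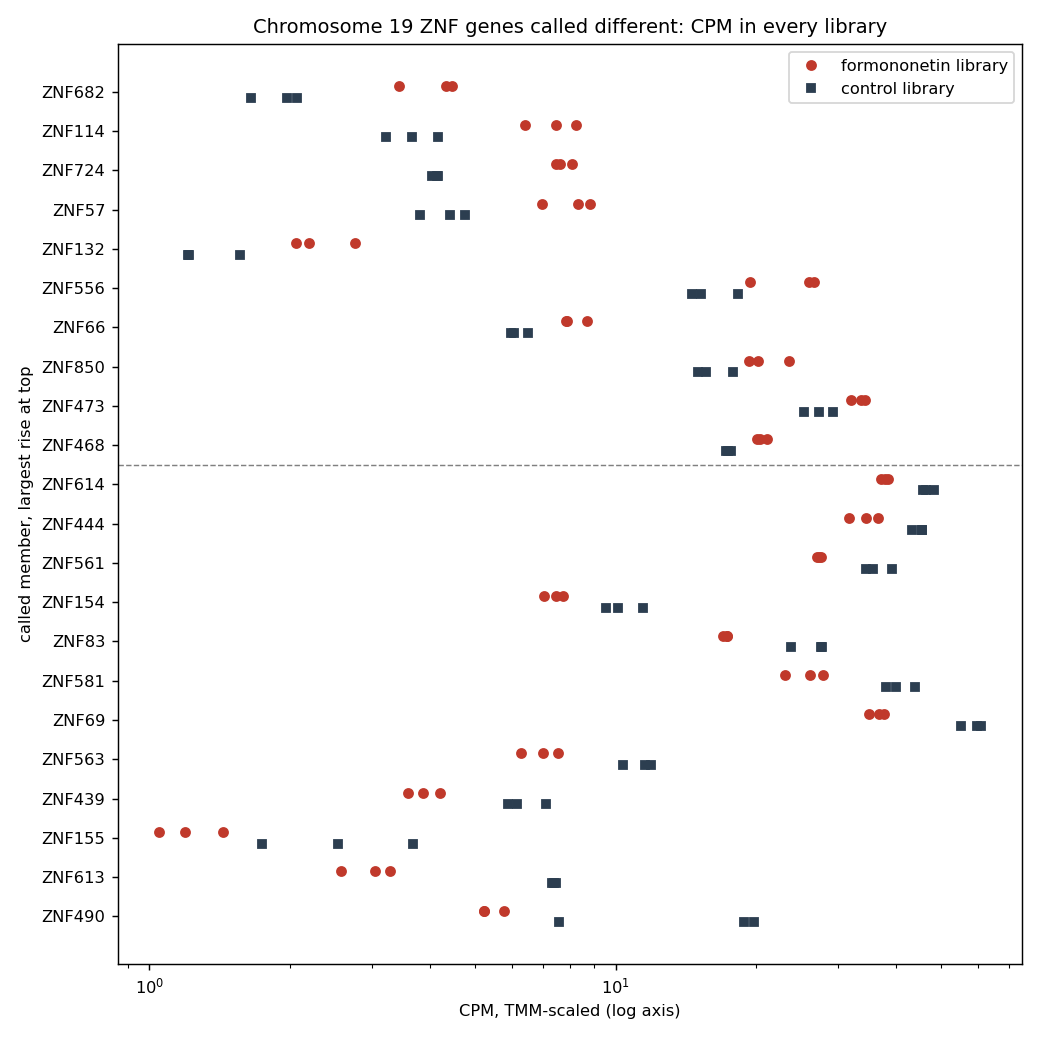
CPM (log axis) of each of the 22 called members in the 3 formononetin libraries (circles) and the 3 control libraries (squares). The dashed line parts the 10 that rose, led by ZNF682, from the 12 that fell, ending with ZNF490, and the groups do not overlap for any of the 22.

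ZNF682, with 10 fingers and a KRAB match, showed the largest rise. It had 3.42, 4.46 and 4.33 CPM in formononetin replicates 1 to 3, against 2.07, 1.65 and 1.98 CPM in control replicates 1 to 3. The log2 fold change was 1.10 ± 0.17 (SE) with adjusted p = 0.00424, and this was the only rise to reach 2-fold. All formononetin libraries lay above all control libraries.

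ZNF724, from the same cluster, had 8.06, 7.60 and 7.46 CPM in formononetin libraries, against 4.05, 4.16 and 4.13 CPM in control libraries. Its log2 fold change was 0.91 ± 0.10 (adjusted p = 0.00121). Libraries of a group lay close together and the groups were well apart. A gene model on the same strand, ENSG00000283201, overlaps it, and with both summed the change was 0.78 (adjusted p = 0.00687).

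ZNF57, with 13 fingers, had 6.95, 8.84 and 8.30 CPM in formononetin libraries, against 4.41, 3.80 and 4.75 CPM in control libraries. The change was 0.89 ± 0.14 (adjusted p = 0.00495), and every formononetin library was the higher. Its neighbour ZNF556 had 26.7, 26.0 and 19.5 CPM in formononetin libraries, against 14.6, 15.2 and 18.4 CPM in control libraries, a change of 0.58 ± 0.14 (adjusted p = 0.0289). Formononetin replicate 3 came close to control replicate 3 for ZNF556, and its call did not survive the omission of replicate 1 or 2 of either group (adjusted p at most 0.0914 over all alternatives).

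ZNF114, which has 3 fingers and lies outside the large clusters, had 7.44, 8.21 and 6.38 CPM in formononetin libraries, against 3.22, 3.66 and 4.16 CPM in control libraries. The change was 0.99 ± 0.15 (adjusted p = 0.00404), with no overlap between groups. An antisense gene, ZNF114-AS1, overlaps it.

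Smaller rises were seen for ZNF132 (0.81 ± 0.19), ZNF66 (0.40 ± 0.10), ZNF850 (0.38 ± 0.11), ZNF473 (0.29 ± 0.07) and ZNF468 (0.23 ± 0.07), on the log2 scale, with adjusted p from 0.0247 to 0.0441. ZNF473 is a component of the machinery that trims the ends of histone messenger RNAs, and averaged 33.3 ± 1.19 CPM in formononetin libraries and 27.3 ± 1.97 CPM in control libraries (SD, n = 3 each). Each of these 5 calls was lost when at least 4 of the 6 libraries were left out singly. ZNF66 and ZNF468 lost theirs without any 1 of the 6. Calls of ZNF682, ZNF724, ZNF57 and ZNF114 were kept under all 18 alternatives.

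Of the 12 falls, 9 kept their call under all 18 alternatives and 3 reached 2-fold. ZNF613, with 12 fingers and a KRAB match, had 2.58, 3.28 and 3.05 CPM in formononetin libraries, against 7.47, 7.32 and 7.38 CPM in control libraries. The log2 fold change was -1.31 ± 0.13 (adjusted p = 0.000717). Control libraries were within a narrow range, and each was above every formononetin library. ZNF614, a finger gene of the same cluster, averaged 37.7 ± 0.676 CPM in formononetin libraries and 46.7 ± 1.33 CPM in control libraries (SD, n = 3 each), a change of -0.31 ± 0.05 (adjusted p = 0.00693).

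ZNF69 had the smallest adjusted p among the members. It had 35.0, 37.7 and 36.7 CPM in formononetin libraries, against 55.0, 60.9 and 59.7 CPM in control libraries, and changed by -0.68 ± 0.06 (adjusted p = 0.000582). Its neighbour ZNF439 had 3.87, 3.59 and 4.20 CPM in formononetin libraries, against 6.15, 7.10 and 5.87 CPM in control libraries, a change of -0.71 ± 0.13 (adjusted p = 0.00832). The pair differed in level but fell by like amounts, and the groups were apart for both.

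ZNF563 averaged 6.94 ± 0.641 CPM in formononetin libraries and 11.3 ± 0.806 CPM in control libraries (SD, n = 3 each), a change of -0.70 ± 0.11 (adjusted p = 0.00504). ZNF83, a member of the cluster that holds ZNF613, averaged 17.2 ± 0.168 CPM in formononetin libraries and 26.4 ± 2.27 CPM in control libraries (SD, n = 3 each), a change of -0.62 ± 0.08 (adjusted p = 0.00233). ZNF561 averaged 27.3 ± 0.244 CPM in formononetin libraries and 36.4 ± 2.39 CPM in control libraries (SD, n = 3 each), a change of -0.42 ± 0.07 (adjusted p = 0.00523). These 3 have KRAB matches, and the groups did not overlap for any of them.

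ZNF581 and ZNF444 encode short proteins, with 4 fingers each and no KRAB match, and ZNF444 is known for a SCAN domain. ZNF581 averaged 25.7 ± 2.45 CPM in formononetin libraries and 40.7 ± 3.03 CPM in control libraries (SD, n = 3 each), a change of -0.66 ± 0.09 (adjusted p = 0.00284). It shares its strand with overlapping CCDC106 and ZNF580, and with these summed the change was -0.50 (adjusted p = 0.00228). ZNF444 ranged from 31.7 to 36.5 CPM in formononetin libraries and from 43.3 to 45.5 CPM in control libraries, a change of -0.39 ± 0.07 (adjusted p = 0.00786). ZNF444 and ZNF614 fell outside the rule for naming genes and were chosen after their values were seen.

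ZNF154, whose promoter is known to be hypermethylated in many tumours, averaged 7.39 ± 0.342 CPM in formononetin libraries and 10.4 ± 0.973 CPM in control libraries (SD, n = 3 each), a change of -0.49 ± 0.11 (adjusted p = 0.0186). The call did not survive the omission of formononetin replicate 1 or 2 or of control replicate 3 (adjusted p at most 0.0624). ZNF155 had 1.19, 1.05 and 1.44 CPM in formononetin libraries, against 3.69, 2.54 and 1.74 CPM in control libraries, a change of -1.11 ± 0.29 (adjusted p = 0.0345). Its control libraries were spread wide, and only without control replicate 3 did the call survive the omission of a library (adjusted p up to 0.105).

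ZNF490 had the largest fall, but it rests on part of the control group. It had 5.21, 5.77 and 5.23 CPM in formononetin libraries, against 19.8, 7.57 and 18.8 CPM in control libraries. The log2 fold change was -1.51 ± 0.33 (adjusted p = 0.0190), and control replicate 2 lay near the formononetin libraries. Without any 1 of the other 5 libraries adjusted p was 0.0548 to 0.0641, and without control replicate 2 it was 0.000778. With ENSG00000269693, an overlapping gene model of the same strand, summed in, the change was -0.22 (adjusted p = 0.125).

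By position, members were grouped wherever over 1 Mb parted consecutive starts, and 8 such clusters hold 5 or more members at the limit. Calls within a cluster did not always share a direction. Of all genes at the limit, 26.3% were called, 15.5% raised and 10.8% lowered. The share called was 40% in the cluster with 5 members, and 4.17% to 16.7% in the others of the 8. In the cluster at 11.5 to 12.6 Mb, all 4 calls among 24 members were falls, those of ZNF439, ZNF69, ZNF563 and ZNF490, and the median log2 fold change was -0.11. Its summed level was 220.7, 229.9 and 215.0 CPM in formononetin libraries, against 269.8, 258.9 and 275.9 CPM in control libraries, with no overlap. This sum includes the 4 called genes. Of these, ZNF69 averaged 36.5 CPM in formononetin libraries and 58.5 CPM in control libraries, and ZNF490 5.40 and 15.4 CPM. The sum therefore does not show a fall of the other members. A lower sum without overlap was not particular to this cluster. It was also seen at 7.07 to 9.79, 36.2 to 37.8, 51.6 to 53.6 and 55.5 to 58.5 Mb. Sums overlapped between groups at 2.82 to 2.94, 19.7 to 24.1 and 43.5 to 45.1 Mb.

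The cluster at 19.7 to 24.1 Mb, near the centromere, had 3 rises among 23 members, those of ZNF682, ZNF66 and ZNF724, no fall, and a median of 0.12. Its summed level overlapped between groups, at 189.3, 202.8 and 182.7 CPM in formononetin libraries and 180.3, 182.5 and 194.7 CPM in control libraries. Of its 37 members, 14 were below the limit and 8 had no count at all. The small cluster at 2.82 to 2.94 Mb had 2 rises, of ZNF556 and ZNF57, among 5 members, though the median of the 5 was -0.17.

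In the cluster at 51.6 to 53.6 Mb, ZNF468 rose and ZNF613, ZNF614 and ZNF83 fell among 31 members. The one at 55.5 to 58.5 Mb, with 49 members, had 1 rise (ZNF132) and 3 falls (ZNF581, ZNF444 and ZNF154). Single calls came from 3 more clusters, with ZNF561 falling among 13 members at 7.07 to 9.79 Mb, ZNF850 rising among 24 at 36.2 to 37.8 Mb and ZNF155 falling among 22 at 43.5 to 45.1 Mb. Among 167 pairs of consecutive members at the limit in the same cluster, both genes were called in 2, ZNF556 with ZNF57 (starts 33.6 kb apart) and ZNF439 with ZNF69 (39.1 kb apart). Both changes had the same sign in 90 pairs (53.9%). This share was not tested, and 118 of the 202 changes were negative, so unrelated pairs would often share a sign as well.

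**Figure D2:**
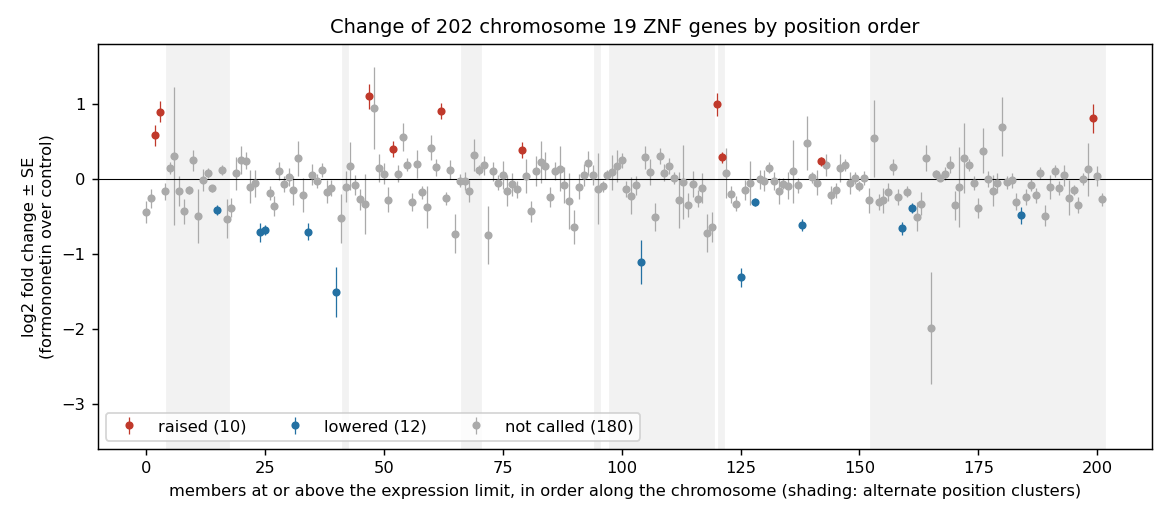
Log2 fold change of formononetin over control with its SE for the 202 members at the limit, in order along chromosome 19, with alternate position clusters shaded. Most points lie near 0; the 10 rises (red) and 12 falls (blue) are scattered, and the lowest point, ZNF264, was not called.

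Promoters were found for 210 of the 241 members, 180 of them at the limit, among 27305 RefSeq promoters in all. CCAATC, searched on both strands, was added after the sequences were seen, as was the limit of 2 copies, so its counts are a description only. At least 2 copies stood in 18 of the 180 windows (10.0%), in 3.09% of all promoters and in 9.74% of windows of ZNF genes on other chromosomes. Of the 18, 16 lie in the clusters at 2.82 to 2.94 Mb and 19.7 to 24.1 Mb, so members with this feature also share their position and descent. They included 5 of the 8 raised members with a window (ZNF556, ZNF57, ZNF682, ZNF66 and ZNF724), 0 of 11 lowered members and 13 of 161 not called. Their log2 fold changes ran from -0.28 to 1.10, with a median of 0.17 and 14 of 18 positive. The median was -0.15 for the 45 windows with a single copy (0 raised, 5 lowered) and -0.05 for the 117 with none (3 raised, 6 lowered). ZNF77, with the most copies (6), and ZNF555, with 3, lie in the cluster of ZNF556 and ZNF57. They changed by -0.17 and -0.26, and neither was called.

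Other motifs were searched on both strands too. AAGATGGC, the YY1 site, was found in 7.22% of the 180 windows and 3.03% of all promoters, including 3 of 11 lowered members, ZNF561, ZNF613 and ZNF614. The NRF1 site was found in 12.8% and 6.28%, and in no called member. TGACNNNGC, the antioxidant response element, was in 14.4% of the windows and 13.6% of all promoters. TTGCGTG was in 3.33% and 1.15%, with ZNF724 and ZNF581 the called members that hold it. The E2F forms TTTCCCGC and TTTGGCGC were found in 1.11% and 3.89% of the windows, against 1.66% and 0.659% of all promoters, and the ZNF143 site in 1.11% against 0.256%. A match is only a run of letters in these windows.

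Of 161 members with a KRAB match at the limit, 8 rose and 8 fell (median log2 fold change -0.05). Of 41 without a match, 2 rose and 4 fell (median -0.10), and some of these may carry a KRAB domain that the pattern missed. The shares called were 9.94% with a match and 14.6% without, beside 26.3% of all genes at the limit. The difference between these classes was not tested. Across the 202 members the log2 fold change had a Spearman rho of 0.12 with the number of fingers, -0.07 with GC content, -0.03 with exon length, -0.04 with mean CPM and -0.03 with position. These are descriptions over genes of the same libraries.

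Several members with described roles were examined whatever their values. ZNF91, a repressor of SVA elements, had 33.3, 30.2 and 35.4 CPM in formononetin libraries, against 40.6, 35.7 and 42.1 CPM in control libraries. The groups did not overlap, by little, and the change of -0.26 ± 0.09 did not pass (adjusted p = 0.0785), although it did under some alternatives, such as upper quartile scaling (0.0337). ZNF93, a repressor of LINE-1 elements, stayed below the limit in every library, at 0.0496 to 0.221 CPM in formononetin libraries and at most 0.0838 CPM in control libraries. ZNF274 helps to recruit SETDB1 to the ends of ZNF genes, and had 42.6 to 44.2 CPM in formononetin libraries, against 43.8 to 50.1 CPM in control libraries (-0.14 ± 0.07, adjusted p = 0.189). Its groups overlapped through control replicate 1.

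ZNF808, a repressor of MER11 elements needed for the human pancreas to form, had 7.67, 22.6 and 20.2 CPM in formononetin libraries, against 19.3, 9.16 and 18.6 CPM in control libraries. A library of each group stood low, the change of 0.10 ± 0.42 could not be separated from 0 (adjusted p = 0.899), and ZNF701 and RPL39P34 overlap it. ZNF224, first described as a repressor of the aldolase A gene, changed by 0.08 ± 0.12 (adjusted p = 0.677). ZNF420, a repressor of p53 targets also named APAK, changed by 0.18 ± 0.18 (adjusted p = 0.542). The imprinted gene ZNF331 changed by -0.29 ± 0.16 (adjusted p = 0.272). None of these 4 passed the test in any alternative.

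ZNF180 had 3.60, 7.29 and 4.28 CPM in formononetin libraries, against 8.32, 8.89 and 7.76 CPM in control libraries. Formononetin replicate 2 lay close to the controls, and the change of -0.72 ± 0.25 did not pass (adjusted p = 0.0862). Without that library it was -1.08 and passed (adjusted p = 0.00698), as it did with DESeq2 (0.0179).

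The most abundant members showed little difference. ZNF460 led both in CPM and per length, at 32.5 CPM per kb of exon, and averaged 114.4 ± 2.40 CPM in formononetin libraries and 113.6 ± 2.01 CPM in control libraries (SD, n = 3 each; log2 fold change 0.01 ± 0.04, adjusted p = 0.897). ZNF121 averaged 95.1 ± 4.45 CPM in formononetin libraries and 103.7 ± 1.61 CPM in control libraries (SD, n = 3 each), a change of -0.13 ± 0.05 (adjusted p = 0.123). The next by CPM were ZNF507 (-0.03 ± 0.09), ZNF317 (-0.15 ± 0.05) and ZNF587 (-0.10 ± 0.16), with adjusted p of 0.867, 0.0888 and 0.708. ZNF121 and ZNF317 fell past the threshold under upper quartile scaling, with adjusted p of 0.0280 and 0.0228, and ZNF317 also with GC and length offsets (0.0272).

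Of the 180 members not called, 166 had a log2 fold change within 0.5 of 0, and for 159 the range of 2 SE on either side lay within 1 of 0. The median SE was 0.139. At an unadjusted p under 0.05, 51 of the 202 passed, 15 higher and 36 lower in formononetin libraries, where of all genes at the limit 40.5% passed, 22.7% higher and 17.8% lower. Groups did not overlap for 70 of the 202 members, 24 higher and 46 lower. Of all 16712 genes at the limit, 4257 were higher and 3464 lower without overlap. Over all genes tested, which include genes below the limit, the shares were 20.8% higher and 18.7% lower.

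The mean CPM of the 202 members had a median of 9.05, with quartiles of 5.23 and 17.3, and 100 members lay between these quartiles. Of these 100, 7 were called, with a median SE of 0.130 and a median absolute log2 fold change of 0.17. All 3654 genes in the same range had 21.6% called, a median SE of 0.122 and a median absolute change of 0.23.

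Other groups of genes at the same limit were counted in the same fit, with no test of the difference. Of 194 ZNF genes on other chromosomes, 15 rose and 23 fell, 19.6% in all (median log2 fold change -0.04, and 0.00 with library totals as the scaling). The share called was 12.8% for the 78 of them with a KRAB match and 24.1% for the 116 without. Among chromosome 19 members with a KRAB match it was 9.94%, so a low share was not particular to chromosome 19. Of 708 other protein-coding genes of chromosome 19, 97 rose and 91 fell (median -0.01). Of 17 chromosome 19 genes with other zinc finger names, such as ZFP and ZSCAN, 1 rose and 2 fell.

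**Figure D3:**
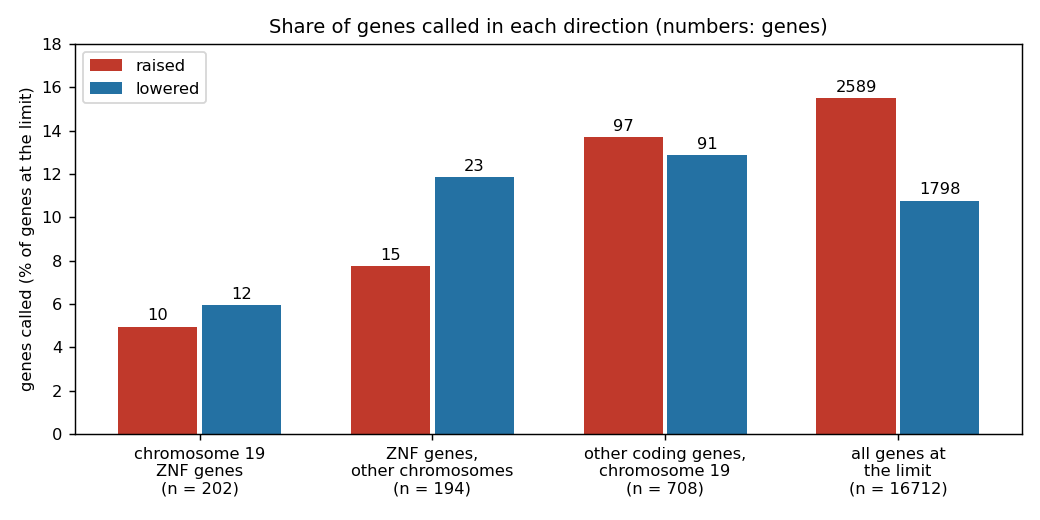
Percent of genes at the limit that rose (red) or fell (blue) among chromosome 19 ZNF genes, ZNF genes elsewhere, other coding genes of chromosome 19 and all genes at the limit, with counts above the bars. The bars of the chromosome 19 ZNF genes stand for 10 and 12 of 202 genes.

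The summed level of the 241 members was 2691, 2678 and 2676 CPM in formononetin libraries, against 2850, 2899 and 2834 CPM in control libraries. All formononetin sums were lower, as shares of their libraries, and the ratio of the means, 2682 ± 8.03 to 2861 ± 33.8 CPM (SD, n = 3 each), was 0.937. The ratio was 0.887 with upper quartile scaling and 0.965 with library totals. ZNF genes on other chromosomes summed to 5256 ± 83.5 CPM in formononetin libraries and 5501 ± 38.8 CPM in control libraries (SD, n = 3 each), a ratio of 0.955.

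Some members varied more between libraries of a group than between groups. In 27 of the 202, the highest library of a group was at least 2-fold above its lowest, and of these ZNF490 and ZNF155 were called. Such spread was seen in 7 of 62 members that overlap a gene on the same strand (11.3%) and in 20 of 140 that do not (14.3%). ZNF358 had 8.09, 10.2 and 10.4 CPM in formononetin libraries, against 12.1, 0.140 and 11.1 CPM in control libraries. Control replicate 2 was near 0, and the log2 fold change of 0.31 ± 0.92 (adjusted p = 0.858) was -0.28 without it.

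ZNF264 had 6.20, 5.32 and 4.46 CPM in formononetin libraries, against 7.14, 48.7 and 7.32 CPM in control libraries. Here control replicate 2 was the high one. The change of -1.99 ± 0.75, the largest in size among the 202, did not pass (adjusted p = 0.107) and was -0.44 without that library. ZNF146, a protein made almost entirely of fingers, had 48.6, 15.1 and 48.9 CPM in formononetin libraries, against 60.0, 66.0 and 63.7 CPM in control libraries. Without its low library, formononetin replicate 2, the change of -0.75 ± 0.38 (adjusted p = 0.222) became -0.37 and passed (adjusted p = 0.0167).

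**Figure D4:**
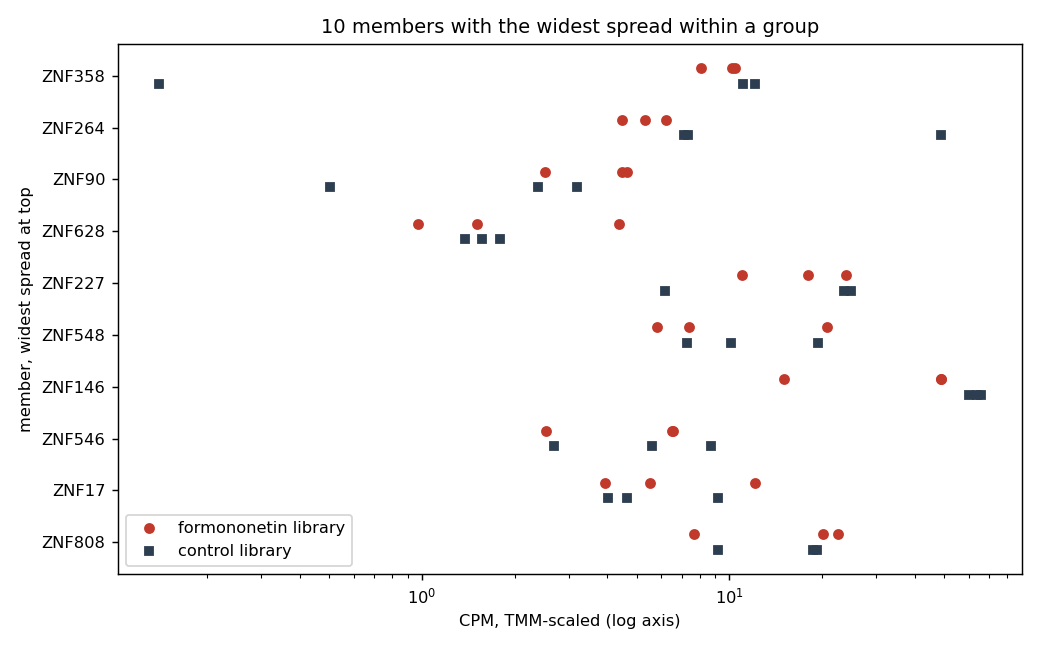
CPM (log axis) in each formononetin library (circles) and control library (squares) for the 10 members with the widest spread within a group. Control replicate 2 is the lowest point of ZNF358, at 0.140 CPM, and the highest of ZNF264, at 48.7 CPM.

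Most genes on a list drawn up around KRAB repression did not pass the test. The list is wider than what KRAB members recruit, and includes the DNA methylation genes UHRF1 and DNMT1. Of 30 listed genes, all tested, 4 rose, 6 fell and 20 were not called, with a median log2 fold change of 0.00, and 26.3% of all genes and 30.9% of protein-coding genes at the limit were called, so this count is near the background. SETDB1, the histone methyltransferase, had 47.2, 46.1 and 46.9 CPM in formononetin libraries, against 69.6, 65.9 and 66.1 CPM in control libraries, a change of -0.52 ± 0.05 (adjusted p = 0.000661). The scaffold TRIM28 averaged 314.6 ± 9.33 CPM in formononetin libraries and 274.1 ± 14.1 CPM in control libraries (SD, n = 3 each), a change of 0.20 ± 0.05 (adjusted p = 0.0290). The SETDB1 call was kept under every alternative, while that of TRIM28 was lost under upper quartile scaling and when any library but control replicate 3 was left out (adjusted p from 0.0518 to 0.140).

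UHRF1 binds hemimethylated DNA and brings in DNMT1, the maintenance DNA methyltransferase. UHRF1 averaged 130.9 ± 5.70 CPM in formononetin libraries and 59.9 ± 10.6 CPM in control libraries (SD, n = 3 each), a change of 1.13 ± 0.12 (adjusted p = 0.000916). DNMT1 averaged 125.3 ± 4.76 CPM in formononetin libraries and 86.4 ± 6.91 CPM in control libraries (SD, n = 3 each), a change of 0.54 ± 0.07 (adjusted p = 0.00191). CBX1, a heterochromatin protein, was the other gene to rise. The others that fell were the chromatin remodeller ATRX, the SUMO ligase PIAS1, the heterochromatin protein CBX5, TRIM24 and MORC2, none by more than 0.33 on the log2 scale.

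**Figure D5:**
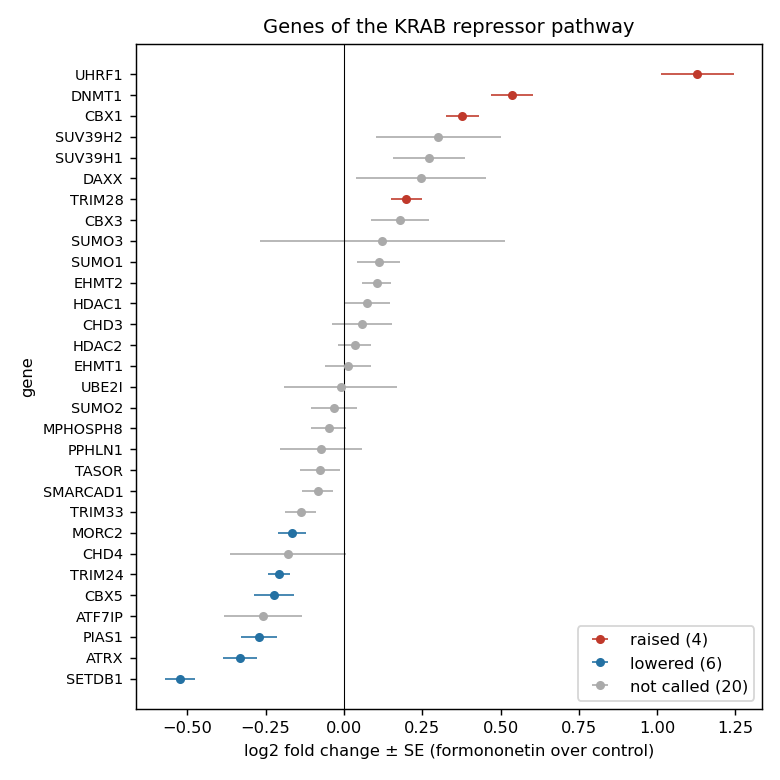
Log2 fold change of formononetin over control with its SE for the 30 genes listed around KRAB repression, ordered by value. UHRF1 stands highest at 1.13 and SETDB1 lowest at -0.52; 4 rose (red), 6 fell (blue) and 20 were not called (grey).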

How the data were processed

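RNA was sequenced from 3 formononetin and 3 control HepG2 libraries, built from 500 ng of RNA by a strand-preserving mRNA method per the labels' protocols. The table as deposited holds raw counts per gene, whole numbers that the authors made from their reads. The submitters' processing notes name GRCh38, STAR 2.5.3a and StringTie 1.3.1c. How reads were counted, with which strand setting and on which annotation, is not given in the sources used here. Overlapping genes are thus uncertain. Of 62729 rows, 2165 name no gene (3.82 to 5.62% of counts) and were left out.

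Members and lists were chosen with earlier results of these data known. Types, positions and coding sequences came from GENCODE 29, where ZNF875 has an older symbol, and promoters from RefSeq. KRAB boxes and fingers were matched by sequence pattern, which can miss degenerate domains. Counts were tested with edgeR 4.0.16 in R 4.3.3 (filterByExpr, TMM, quasi-likelihood F test, two-sided, Benjamini-Hochberg), and the test was tried on simulated counts. Each SE was obtained from the log2 fold change and the square root of its F value, as their ratio. Limits from counts of 0 cover counting error only.

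Named members were the 10 largest rises and falls past the threshold, the 5 highest by CPM, the called member with the smallest adjusted p in each cluster and 8 with described roles. Named genes of the repressor list were TRIM28, SETDB1 and the 3 with the smallest adjusted p, and the members of widest spread were named after their values were seen. Alternatives were DESeq2 1.42.0, limma 3.58.1 (voom), other scalings and filters, the replicate number as a block, each library left out, GC and length offsets, overlapping genes summed (at least 50 bases) and unnamed rows kept. Those for the repressor list, for all genes, for the summed level and the CCAATC motif were added after the data were seen. Figures were drawn with matplotlib 3.10.9.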

Additional observations from a re-analysis of the deposited data

How the results depend on the processing

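Upper quartile scaling gave 6 members raised and 25 lowered, with a median log2 fold change of -0.137 beside -0.0899 for all genes tested. It gave 9 raised and 36 lowered ZNF genes elsewhere and a summed ratio of 0.887. Members with a KRAB match had 15 lowered, and members without a match had 0 raised and 10 lowered. With library totals the members' median was -0.0148 and the ratio 0.965. DESeq2 called 20 members lowered, 14 of them with a KRAB match. GC and length offsets gave 6 raised and 19 lowered (13 lowered with a KRAB match, 0 raised without a match) and a median of -0.112. Without a low-count filter the median was -0.0357, with 1 raised member without a KRAB match and 15 lowered ZNF genes elsewhere. A filter of 1 CPM gave a median of -0.0736 and 7 lowered members without a KRAB match. Over the alternatives that kept every library, all genes tested had 1813 to 3142 raised and 1328 to 2737 lowered.

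By cluster, calls at 2.82 to 2.94 Mb were 1 with the block. At 7.07 to 9.79 Mb they were 3 (upper quartile) and 2 (GC offsets). At 19.7 to 24.1 Mb they were 5 (DESeq2). At 36.2 to 37.8 Mb they were 0 without a filter and 0 with the block. At 43.5 to 45.1 Mb they were 2 (upper quartile), 3 (DESeq2), 0 (voom), 0 (no filter), 2 (1 CPM filter) and 0 (block). At 55.5 to 58.5 Mb they were 9 (upper quartile), 7 (DESeq2), 7 (1 CPM filter) and 7 (GC offsets).

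Same-numbered libraries did not deviate together (correlations of -0.06, -0.04 and -0.05), and none correlated best with its own. The labels do not say whether they were handled together, and deviations from means of 3 libraries cannot settle it. With the replicate number as a block, 5 members rose, 4 of them with a KRAB match and 1 without, as did 8 ZNF genes elsewhere. ZNF91 then passed as a fall (-0.261, adjusted p = 0.0475).

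Leaving out each library in turn gave 4 to 6 members raised, 10 to 15 lowered and a median of -0.0834 to -0.0255. ZNF genes elsewhere had 6 to 11 raised and 14 to 17 lowered. Other chromosome 19 genes had 69 to 89 raised and 51 to 71 lowered. Members with a KRAB match had 4 to 5 raised, those without a match 0 to 2, and the repressor list 3 to 5 lowered. Clusters, in the order above, had 1 to 2, 1 to 2, 2 to 3, 0 to 1, 0 to 1 and 2 to 6 calls. No called member changed sign under any of the 18 alternatives, and 9 of 12 falls and 4 of 10 rises kept their call in all. The cause of these shifts was not tested. The median SE of 0.139 among members not called limits what 3 libraries a group could detect.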
